A study of Mus musculus with 6 samples.

Results

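Mitosis genes encode the cyclins, kinases, motors and chromosome proteins that carry a cell through division, and 44 of them were followed in mouse back skin. The members were the rows of the deposited expression table whose gene name equalled 1 of 44 listed symbols, out of 57010 genes. All 44 symbols were found, and all 44 met the filter on low values, a level of 1 TPM or more in 3 or more of the 6 libraries, and none was below 1 TPM in any library. TPM is a transcript abundance, corrected for gene length, as a share of a library's RNA. The MOD group was 3 libraries of skin from mice given 62.5 mg of imiquimod, a Toll-like receptor 7 agonist used to provoke psoriasis-like inflammation. It was put on their shaved backs daily for 6 days. The CON group was 3 libraries of control skin without imiquimod, labelled wild type. The sources used here give no strain, sex or age, and do not say whether control skin received a vehicle. They do not say either that each library was a separate animal, so p-values reflect only the spread among these 6 samples, which may be technical.

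Most mitosis genes are silent in resting cells and are transcribed late in the cycle, from the end of DNA replication until division. Cyclin B with CDK1 starts mitosis, Polo-like and Aurora kinases build the spindle, a checkpoint at the kinetochores delays chromosome separation, and the anaphase-promoting complex ends it by marking cyclin B and securin for destruction. In skin, dividing cells lie mainly in the basal epidermis and in the matrix at the base of growing hair follicles, and basal keratinocytes of psoriatic plaques are known for rapid division.

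All 44 mitosis genes were lower in MOD than in CON. The 44 members together held 568, 571 and 640 TPM in the MOD libraries, against 1422, 1849 and 1772 TPM in the CON libraries. Means were 593 ± 40.8 TPM in MOD and 1681 ± 228 TPM in CON (SD, n = 3 each), so the summed level was 2.83-fold lower in MOD. All 3 MOD libraries lay below all 3 CON libraries for each of the 44 genes, whereas 6739 of the 15323 tested genes (44%) had this order. All 44 fell past the threshold and 0 rose (limma, two-sided, Benjamini-Hochberg adjusted p from 0.000621 to 0.0113), where 36.1% of all tested genes were called lower and 12.5% higher. Their mean TPM was between 1.94 and 4.41-fold lower, with a median of 3.03-fold. It was at least 2-fold lower for 43 members, against 17.1% of tested genes, and at least 3-fold lower for 25, against 7.38%. On the log2(TPM + 1) scale the members' median difference was -1.49, beside -0.31 for all tested genes. In bulk skin, fewer dividing cells, less RNA per dividing cell and more RNA from other cells cannot be told apart.

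**Figure D1:**
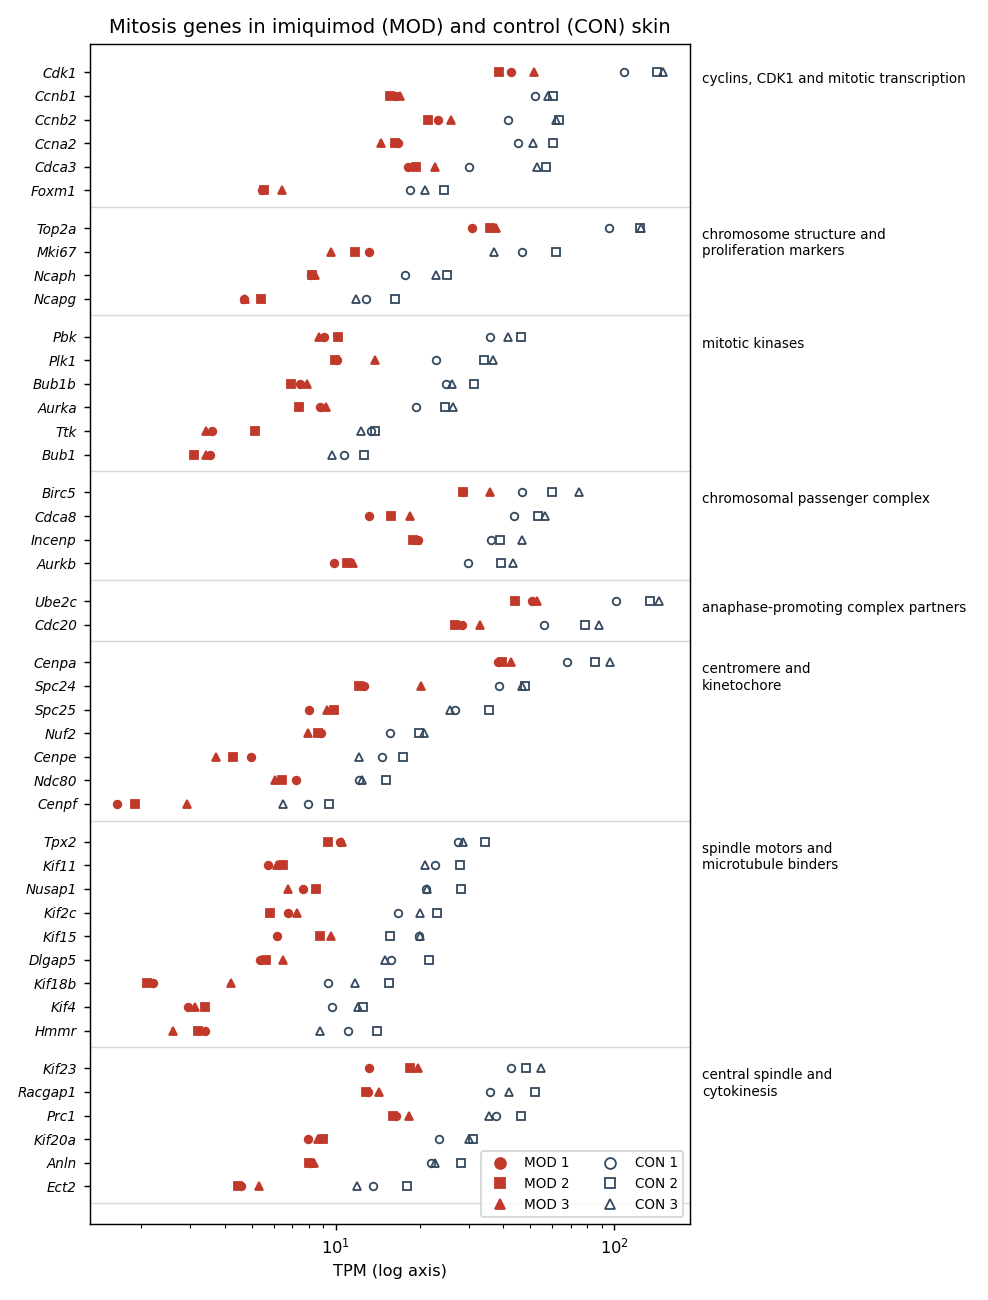
Level of each of the 44 mitosis genes in TPM (log axis) in the 3 MOD (filled) and 3 CON (open) libraries, 1 symbol shape per library number, grouped by role. In every row the filled symbols lie to the left of the open ones, and the order of the genes by level is much alike in both groups.

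Libraries of a group were close to each other. The coefficient of variation had a median over members of 9.49% in MOD and 15.8% in CON. Among the MOD libraries, MOD 3 was the highest for 28 members and the lowest for 9. Among the CON libraries, CON 1 was the lowest for 31 members and the highest for 0, and CON 2 was the highest for 30. The controls also split in a second way. H2-Ea, an MHC class II gene, was listed at 0 in all MOD libraries and in CON 2, and at 194 and 162 TPM in CON 1 and CON 3, so values from a fit with a term for this split, which in effect sets MOD against CON 2, are given where they matter. The cause of the split was not tested. In that fit 42 members fell and 0 rose (adjusted p from 0.00785 to 0.0329 for those called), where 17.9% of tested genes were called lower. Birc5 (log2 difference -0.93, adjusted p = 0.069) and Kif15 (-0.89, adjusted p = 0.061) lost their calls. The term made the difference more negative for 42 members and less negative for 2, and the median became -1.67. With median-of-ratios scaling, which sets the middle of the table near 0, 44 members fell, where 20.1% of tested genes were called lower. With that scaling and the H2-Ea term together 32 members fell, where 5.16% of tested genes were called lower, and Birc5, Ccnb2, Cdc20, Cdca3, Cenpa, Incenp, Kif15, Ndc80, Nuf2, Plk1, Spc24 and Ube2c did not pass. The differences of these 12 ran from -1.26 (Spc24) to -0.52 (Kif15), against -1.53 to -0.91 in TPM as deposited, and their SEs were 0.20 to 0.32, against 0.13 to 0.25. Cdca3, for example, stood at -1.07 (SE 0.32) in that setting and at -1.13 (SE 0.25) in TPM as deposited.

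Many promoters of late cell cycle genes carry a short element called the CHR, which binds the DREAM and MuvB complexes that hold them silent in resting cells and switch them on before mitosis, next to CCAAT boxes bound by NF-Y. The supplied RefSeq promoter windows (build GRCm38.p6, 250 bases before to 50 after a start) matched 35 members with 37 windows. Those of Aurkb, Ccna2, Dlgap5, Foxm1, Incenp, Kif20a, Pbk, Spc24 and Tpx2 were not matched. Read on both strands, the CHR core TTTGAA was in 30 of the 37 windows (81.1%), against 17.9% of all 32851 windows and 12.8% of the 14374 windows of tested genes. CCAAT was in 29 (78.4%), against 37.4% of all windows. Both were in 26 (70.3%), against 6.95% of all windows. The variant TTTAAA was in 9 (24.3%), against 13.2%. Stretches of 120 bases before the start are shown for 7 members, 5′ to 3′ on the gene's strand, because they hold these elements side by side in genes of different roles. Capitals mark the 3 motifs just named, on either strand. The stretch of Mki67 lies 200 to 81 bases before the start and that of Top2a 130 to 11 bases before it.
Ccnb1 (chr13:100786487-100786606, - strand): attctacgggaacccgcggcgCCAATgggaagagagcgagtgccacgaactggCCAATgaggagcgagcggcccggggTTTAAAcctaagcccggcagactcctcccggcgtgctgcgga
Cdk1 (chr10:69352913-69353032, - strand): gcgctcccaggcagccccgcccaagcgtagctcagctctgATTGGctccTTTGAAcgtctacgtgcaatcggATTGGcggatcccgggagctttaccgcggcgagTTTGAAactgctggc
Mki67 (chr7:135716460-135716579, - strand): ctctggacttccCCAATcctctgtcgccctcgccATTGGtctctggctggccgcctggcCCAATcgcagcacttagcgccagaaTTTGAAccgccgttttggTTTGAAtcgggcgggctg
Top2a (chr11:99024200-99024319, - strand): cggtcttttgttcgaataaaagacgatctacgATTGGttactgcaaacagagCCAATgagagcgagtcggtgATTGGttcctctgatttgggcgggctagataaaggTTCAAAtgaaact
Cdc20 (chr4:118437344-118437463, - strand): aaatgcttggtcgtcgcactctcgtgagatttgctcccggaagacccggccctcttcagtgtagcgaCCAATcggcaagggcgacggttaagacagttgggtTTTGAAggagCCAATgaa
Ube2c (chr2:164769809-164769928, + strand): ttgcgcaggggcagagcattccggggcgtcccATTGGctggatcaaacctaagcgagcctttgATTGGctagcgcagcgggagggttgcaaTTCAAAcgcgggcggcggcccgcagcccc
Kif11 (chr19:37376262-37376381, + strand): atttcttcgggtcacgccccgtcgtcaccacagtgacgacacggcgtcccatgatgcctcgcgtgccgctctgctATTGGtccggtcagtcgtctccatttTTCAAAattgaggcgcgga
These matches are letters in a window and not measured binding. The median fall was 3.02-fold for the 28 matched members with TTTGAA and 3.09-fold for the 7 without it. It was 3.23-fold for the 27 with CCAAT (range 2.07 to 4.29) and 2.46-fold for the 8 without it (1.94 to 3.09). The ranges overlapped, and these differences were not tested.

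The genes that start mitosis were among those with clear falls. Cdk1, the kinase that drives cells into mitosis, had 42.5, 38.5 and 51.3 TPM in MOD libraries 1 to 3, against 108, 142 and 149 TPM in CON libraries 1 to 3. It was the member with the highest mean in CON. Ccnb1, cyclin B1, its partner, had 16.5, 15.7 and 17.0 TPM in MOD, against 51.8, 60.2 and 57.9 TPM in CON. The log2 difference was -1.57 for Cdk1 (SE 0.17, limma adjusted p = 0.0016) and -1.73 for Ccnb1 (SE 0.12, adjusted p = 0.00062). Both groups were tight for Ccnb1 and far apart. Foxm1, a forkhead factor that activates late cell cycle genes, averaged 5.79 TPM in MOD and 21.3 TPM in CON, 3.68-fold lower. The smallest fall of this group was that of Cdca3, an adaptor for the destruction of the mitosis-delaying kinase Wee1. Cdca3 had 18.1, 19.5 and 22.7 TPM in MOD, against 30.0, 56.8 and 52.8 TPM in CON, where CON 1 stood below the other controls (log2 difference -1.13, SE 0.25, adjusted p = 0.011). Ccna2 and Ccnb2, cyclins A2 and B2, were 3.29 and 2.36-fold lower. Ccnb2 has a pseudogene row, Ccnb2-ps, at 0.62 to 1.61 TPM in MOD and 0.35 to 0.80 TPM in CON, with which reads could be exchanged.

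Genes for the chromosomes' own structure fell as well. Top2a, the topoisomerase that untangles sister chromatids, had 30.8, 35.7 and 37.7 TPM in MOD, against 95.9, 124 and 124 TPM in CON (log2 difference -1.69, SE 0.15, adjusted p = 0.0010). Mki67, the Ki-67 protein that coats mitotic chromosomes and is stained as a marker of dividing cells, had 13.2, 11.8 and 9.60 TPM in MOD, against 46.8, 61.7 and 37.0 TPM in CON (log2 difference -1.96, SE 0.21, adjusted p = 0.0016). Its mean was 4.21-fold lower, although CON 3 and CON 2 differed by more than any 2 MOD libraries. Ncaph, a condensin subunit, had 8.17, 8.24 and 8.45 TPM in MOD, against 17.8, 25.1 and 22.9 TPM in CON (log2 difference -1.29, SE 0.16, adjusted p = 0.0020). The MOD libraries of Ncaph were nearly equal. Ncapg, another condensin subunit, was 2.76-fold lower.

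Of the mitotic kinases, Pbk, a kinase active in mitosis, had the largest fall of all 44 genes. It stood at 9.07, 10.2 and 8.75 TPM in MOD, against 35.9, 46.2 and 41.5 TPM in CON, 4.41-fold lower (log2 difference -2.02, SE 0.14, adjusted p = 0.00067). The lowest CON library was 3.52 times the highest MOD library, the widest such gap among the members. Aurka, Aurora A kinase of the spindle poles, had the smallest log2 difference of the kinases, with 8.82, 7.36 and 9.24 TPM in MOD, against 19.4, 24.7 and 26.5 TPM in CON (2.78-fold lower, log2 difference -1.37, SE 0.17, adjusted p = 0.0020). Plk1, the Polo-like kinase of mitotic entry, was 2.76-fold lower by mean TPM. The checkpoint kinases Ttk and Bub1 were 3.24 and 3.29-fold lower, and Bub1b, which encodes the checkpoint protein BubR1, 3.70-fold.

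The 4 genes of the chromosomal passenger complex, which corrects wrong attachments and guides cell separation, moved by unequal amounts. Aurkb, its Aurora B kinase, had 9.87, 11.0 and 11.5 TPM in MOD, against 29.7, 39.2 and 43.4 TPM in CON (3.47-fold lower, log2 difference -1.69, SE 0.17, adjusted p = 0.0013). Birc5, survivin, had 28.8, 28.6 and 35.7 TPM in MOD, against 46.5, 59.6 and 74.7 TPM in CON. The groups of Birc5 did not overlap, but the lowest CON library was only 1.30 times the highest MOD library, the narrowest gap of the 44. Its fall was 1.94-fold (log2 difference -0.92, SE 0.20, adjusted p = 0.0099). Incenp, the scaffold, was 2.08-fold lower and Cdca8, borealin, 3.22-fold lower. The differences between these falls were not tested.

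Partners of the anaphase-promoting complex were among the more abundant members. Ube2c, its ubiquitin-conjugating enzyme, had 50.6, 43.9 and 52.7 TPM in MOD, against 101, 135 and 145 TPM in CON (log2 difference -1.34, SE 0.17, adjusted p = 0.0021). Cdc20, its activator in mid-mitosis, had 28.5, 26.8 and 32.9 TPM in MOD, against 55.8, 78.2 and 88.3 TPM in CON (log2 difference -1.28, SE 0.19, adjusted p = 0.0033). For both, CON 1 was the lowest control and still above all MOD libraries.

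Centromere and kinetochore genes, which tie chromosomes to the spindle, all fell, by 2.02 to 3.69-fold. Cenpa, the histone H3 variant that marks centromeres, had 38.2, 39.6 and 42.6 TPM in MOD, against 67.8, 85.3 and 96.6 TPM in CON (log2 difference -1.02, SE 0.16, adjusted p = 0.0034). The 4 subunits of the NDC80 complex, the main microtubule binder of the kinetochore, fell by different amounts. Ndc80 had 7.21, 6.41 and 6.08 TPM in MOD, against 12.2, 15.1 and 12.5 TPM in CON (2.02-fold lower, log2 difference -0.91, SE 0.15, adjusted p = 0.0042). Spc25 had 8.01, 9.89 and 9.35 TPM in MOD, against 26.8, 35.6 and 25.8 TPM in CON (3.24-fold lower, log2 difference -1.58, SE 0.17, adjusted p = 0.0014). Nuf2, which pairs with Ndc80, was 2.21-fold lower, and Spc24, which pairs with Spc25, was 2.95-fold lower. Within each pair the falls were thus closer to each other than between the pairs, a description of 4 genes with no test. Cenpe, a kinetochore motor, and Cenpf, a large kinetochore protein, were 3.41 and 3.69-fold lower. Cenpf held the lowest level of all members, 1.64 TPM in MOD 1.

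The 9 spindle motors and microtubule binders spanned most of the range. Tpx2, which activates Aurora A on the spindle, had 10.4, 9.37 and 10.5 TPM in MOD, against 27.5, 34.2 and 28.7 TPM in CON (log2 difference -1.49, SE 0.14, adjusted p = 0.0011). Kif18b, a kinesin that shortens astral microtubules, had 2.21, 2.10 and 4.22 TPM in MOD, against 9.42, 15.5 and 11.7 TPM in CON (4.29-fold lower, log2 difference -1.80, SE 0.27, adjusted p = 0.0034). MOD 3 stood above the other MOD libraries there, and Kif18b had the largest SE of the members. Kif15, a motor that helps hold the spindle apart, had the smallest fall of this group, with 6.16, 8.76 and 9.63 TPM in MOD, against 19.9, 15.7 and 20.03 TPM in CON. It was 2.27-fold lower (log2 difference -1.10, SE 0.20, adjusted p = 0.0054), and its lowest control was CON 2, unlike any other member. Kif11, the Eg5 motor that drives the spindle poles apart, was 3.89-fold lower. Kif4, a motor bound to chromosomes, was 3.61-fold lower, Hmmr 3.69-fold, Nusap1 3.09-fold, Kif2c 3.02-fold and Dlgap5 3.01-fold.

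Genes of the central spindle and of cytokinesis, the physical separation of daughter cells, fell by 2.35 to 3.30-fold. Kif23, a motor subunit of centralspindlin, had 13.2, 18.5 and 19.8 TPM in MOD, against 42.6, 48.3 and 54.6 TPM in CON (log2 difference -1.46, SE 0.19, adjusted p = 0.0022). Kif20a, a motor that brings the passenger complex to the midzone, had 7.98, 8.99 and 8.67 TPM in MOD, against 23.6, 30.99 and 30.1 TPM in CON (log2 difference -1.60, SE 0.15, adjusted p = 0.0011). Prc1, which bundles midzone microtubules, had 16.5, 16.1 and 18.4 TPM in MOD, against 37.7, 46.4 and 35.6 TPM in CON (log2 difference -1.18, SE 0.14, adjusted p = 0.0020). Racgap1, the other subunit of centralspindlin, was 3.23-fold lower. Ect2, which activates the GTPase RhoA at the cleavage furrow, was 3.04-fold lower and the furrow scaffold Anln 2.97-fold lower. The order of members by mean TPM was nearly the same in both groups (Spearman's rho 0.96 over 44 genes that share the same libraries, given as a description).

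**Figure D2:**
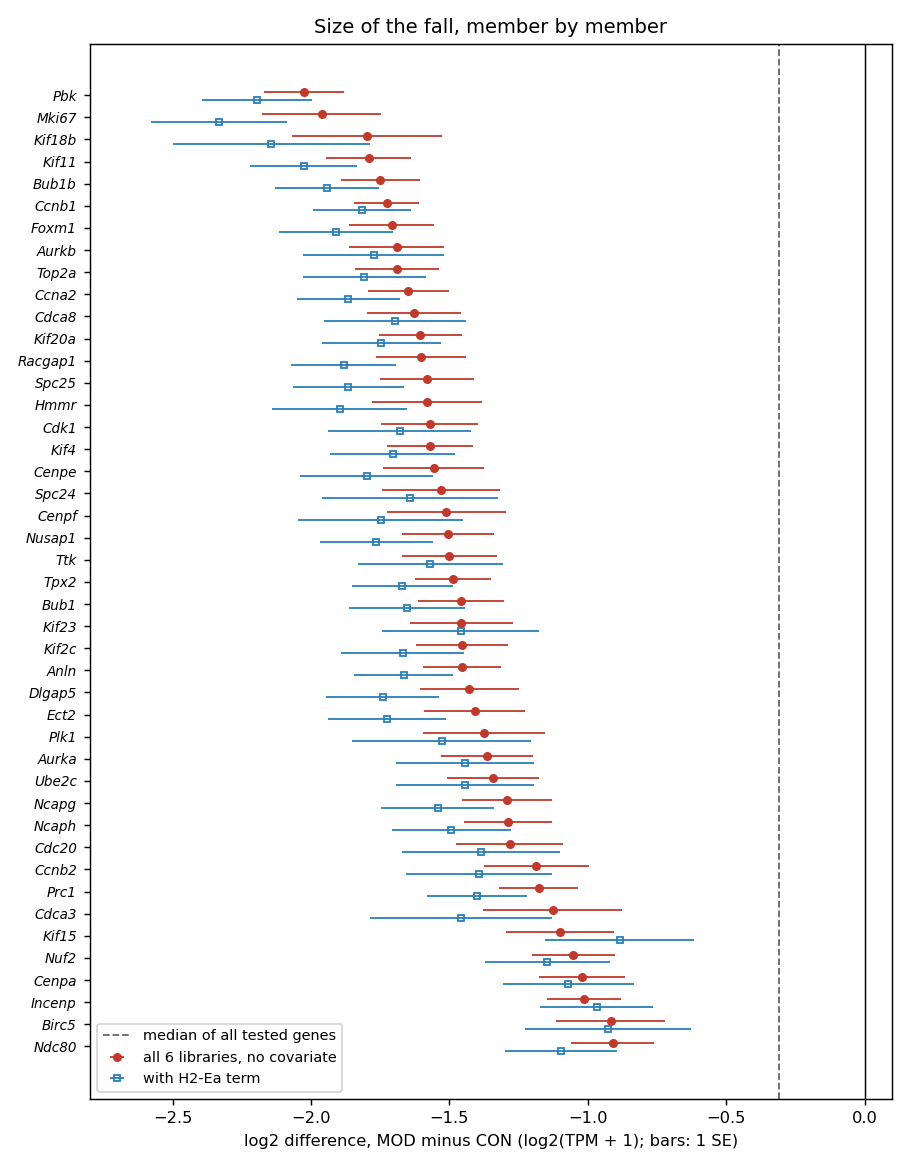
Difference of each mitosis gene between MOD and CON on the log2(TPM + 1) scale with 1 standard error, from the fit to all 6 libraries without a covariate (filled circles) and with the H2-Ea term (open squares). All 44 points of both fits lie left of the dashed line, the median of all tested genes at -0.31.

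Other genes of division showed how far the fall reached. Of 109 further mitosis genes, 93 fell and 0 rose (85.3%, median log2 difference -0.97), beside the 36.1% of all tested genes. With the H2-Ea term 69 fell, beside 17.9% of all tested genes. The largest falls on the log2(TPM + 1) scale were those of Nek2, a centrosome kinase, at 3.26, 3.12 and 3.33 TPM in MOD against 14.9, 16.9 and 17.5 TPM in CON (5.07-fold lower), Stmn1, the microtubule-destabilising protein stathmin (3.55-fold), and Spag5, astrin of the spindle (3.51-fold). Their groups did not overlap either, with 130 to 195 TPM in MOD against 427 to 657 TPM in CON for Stmn1. Among 33 checkpoint and kinetochore genes 31 fell, among 21 spindle and centrosome genes 20, and among 15 condensin and cohesin genes 14. Of the 17 genes of the anaphase-promoting complex and its inhibitors and targets, 10 fell and 7 did not pass the test, with a median of -0.56. The core subunits Anapc1, Anapc2, Anapc5, Anapc7, Anapc10, Cdc23 and Cdc27 fell. Anapc4 (-0.14, adjusted p = 0.63), Anapc11, Anapc13, Cdc16 and Cdc26 (-0.27, adjusted p = 0.27), also core subunits, were among the 7. So was Pttg1, securin, at 46.9, 43.6 and 53.3 TPM in MOD against 53.2, 45.2 and 77.9 TPM in CON (adjusted p = 0.35). Nek7 and Nek9, kinases of the spindle, stood at log2 differences of 0.07 and -0.13 (adjusted p = 0.69 and 0.41). Nek7 was called higher with quantile normalization.

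Upstream and earlier steps of the cycle moved in the same libraries. Of 36 DNA replication genes 35 fell and 0 rose (97.2%, beside 36.1% of all tested genes), with a median of -1.25. With the H2-Ea term 27 fell, where 17.9% of tested genes were called lower. Uhrf1, which maintains DNA methylation at the replication fork, had the largest fall, at 10.3, 10.5 and 14.0 TPM in MOD against 48.8, 65.5 and 59.7 TPM in CON, followed by the helicase subunits Mcm5 (3.94-fold) and Mcm2 (3.56-fold). Mcm3 did not pass (log2 difference -0.41, adjusted p = 0.22). The summed level of the mitosis genes over that of the replication genes was 1.11 ± 0.0565 in MOD and 1.25 ± 0.0417 in CON (SD, n = 3 each). Of 22 regulators of cell cycle transcription 16 fell and 0 rose (72.7%, beside 36.1% of all tested genes). With the H2-Ea term 11 fell, beside 17.9%. E2f8, a repressor of the E2F family, was 4.32-fold lower, E2f2 3.83-fold and Mybl2, B-Myb, which joins the MuvB complex at late promoters, 3.94-fold. Lin37 of MuvB (-0.33, adjusted p = 0.18) and Rbl2, the pocket protein p130 of DREAM (0.10, adjusted p = 0.58), did not pass, nor did E2f1 (-0.18, adjusted p = 0.58). The MuvB genes Lin9, Lin52 and Lin54 fell (log2 differences -0.62, -0.46 and -0.82), as did Rbl1 (-1.41), another pocket protein. Rbl2 and E2f6 were called higher with median-of-ratios scaling and with quantile normalization.

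Of 15 G1 cyclins and inhibitors of cyclin-dependent kinases 8 fell and 0 rose, which at 53.3% lay nearer than the other lists to the 36.1% of all tested genes. With the H2-Ea term 7 fell, beside 17.9%. Ccnd1, cyclin D1, which links growth signals to the cycle, had 10.2, 10.9 and 21.7 TPM in MOD, against 86.8, 97.6 and 75.3 TPM in CON (6.06-fold lower, log2 difference -2.59, SE 0.28, adjusted p = 0.0015). Cdkn2b, the inhibitor p15, was 5.12-fold lower and Ccnd2, cyclin D2, 3.91-fold. Cdkn1a, the inhibitor p21, had 84.0, 96.5 and 130 TPM in MOD, against 173, 168 and 111 TPM in CON. Its groups overlapped and it did not pass (log2 difference -0.53, SE 0.23, adjusted p = 0.098). Ccnd3, cyclin D3, stood at a log2 difference of 0.42 (adjusted p = 0.17) and was called higher with median-of-ratios scaling and with quantile normalization.

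**Figure D3:**
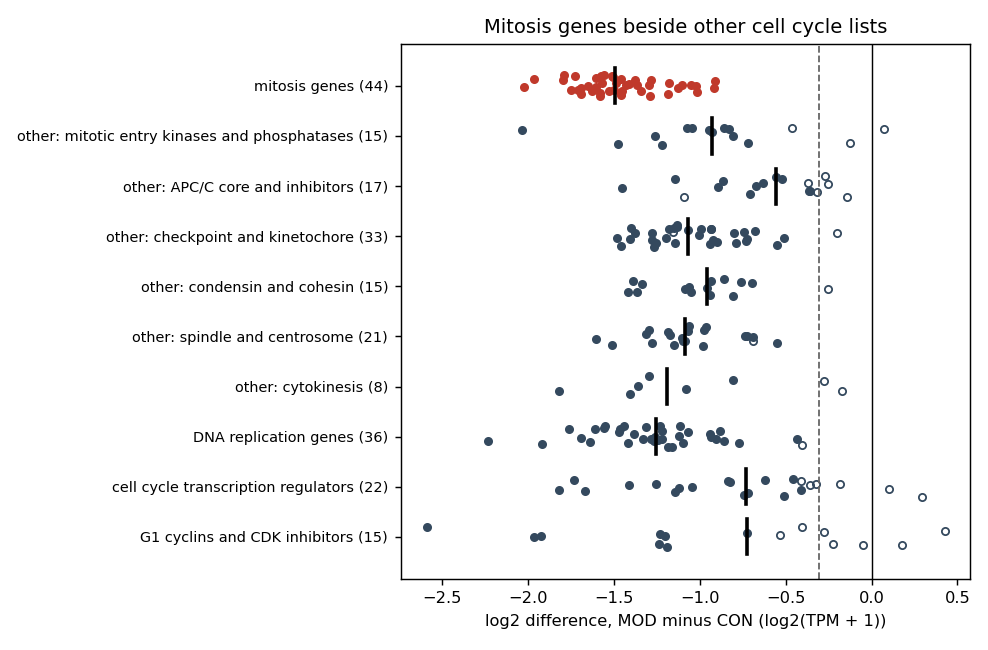
Log2 difference between MOD and CON of each tested gene in the mitosis list (red) and in other cell cycle lists (dark), with filled points for genes past the threshold, open points for the rest and black bars for list medians. The 44 mitosis genes lie between -2.02 and -0.91, all left of the dashed median of all tested genes, whereas the other lists reach from -2.59 to 0.42.

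Long mitosis genes tended to fall more. Over the 44 members the log2 fold and the log2 gene length, as listed in the deposited table, had a Pearson correlation of 0.47 and a Spearman correlation of 0.48, a description over genes measured in the same libraries. The 6 members under 1500 bases had a median fall of 2.77-fold and the 19 from there to below 3000 bases 3.01-fold. The 10 from 3000 to below 4500 bases had a median fall of 3.17-fold and the 9 of 4500 bases or more 3.61-fold. The table as a whole had the same slant, with median log2 differences of -0.16, -0.27, -0.38 and -0.46 over the tested genes of the 4 classes. In each class the members' median stood more than 1 below that of the tested genes. Length and level also went together, with lower TPM for longer members (Spearman's rho -0.54). A pseudocount of 1 understates the log2 differences of low genes, whereas the folds and their correlations with length carry no pseudocount. The part of length in the size of the falls was not tested.

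**Figure D4:**
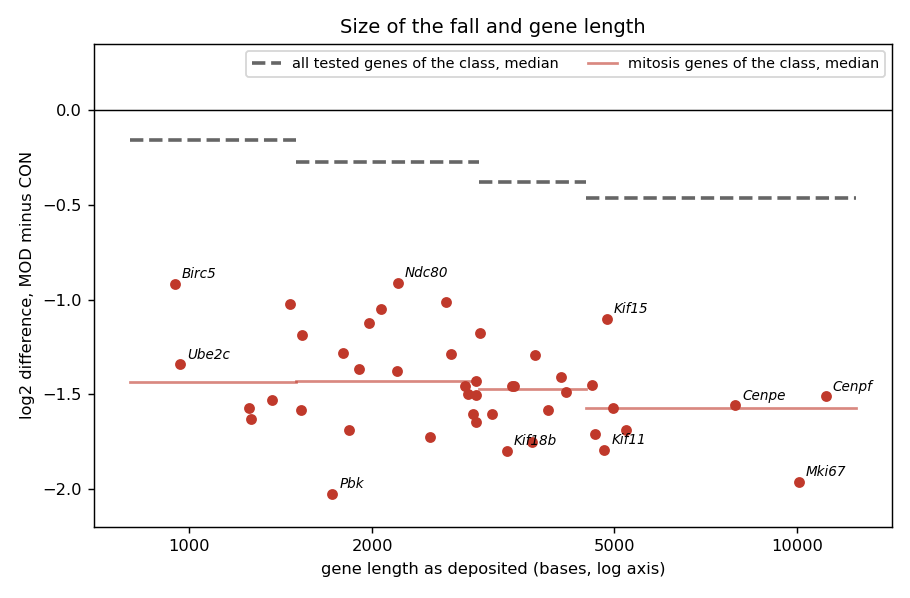
Log2 difference between MOD and CON of the 44 mitosis genes against gene length (log axis), with the median of the members (red lines) and of all tested genes (dashed) in 4 length classes. The dashed medians go from -0.16 in the shortest class to -0.46 in the longest. The red ones, in the same order, are -1.44, -1.43, -1.47 and -1.57.

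Marker genes of several cell types also differed between the groups, some in the same direction as the mitosis genes and some not. The 8 basal epidermis markers were present in all libraries. Of these, 1 rose, 3 fell (37.5%) and 4 did not pass, where 36.1% of all tested genes were called lower and 12.5% higher. Krt14, a basal keratin, was the 1 that rose, at 3057, 3022 and 3035 TPM in MOD and 1132, 1625 and 1906 TPM in CON. Trp63, the p63 factor of basal keratinocytes, fell, with 30.1, 29.5 and 28.6 TPM in MOD, against 84.7, 89.4 and 83.4 TPM in CON (2.92-fold lower). Krt15, a keratin of basal and bulge cells, was 3.31-fold lower and Col17a1, a hemidesmosome collagen, 1.37-fold lower. The basal sum was 4919 to 5197 TPM in MOD and 3274 to 4969 TPM in CON, and Krt5 and Krt14 alone held 90.9 to 93.2% of it in MOD and 73.2 to 78.0% in CON. How the mitosis genes stood against basal markers thus depended on the marker. Their sum was 0.195 ± 0.0137 times Krt14 in MOD and 1.11 ± 0.165 times in CON, and 0.362 ± 0.029 times Krt5 in MOD and 1.08 ± 0.166 times in CON (SD, n = 3 each). The ratios to the basal markers Itga6 (10.6 in MOD, 36.9 in CON) and Itgb4 (35.9 and 77.0) were lower in MOD as well. So were those to Col17a1 (12.6 and 26.2) and Dst (14.0 and 35.6), all without overlap. Against Trp63 the ratio was 20.2 ± 1.91 in MOD and 19.6 ± 2.43 in CON. Against Krt15 it was 2.97 ± 0.802 in MOD and 2.43 ± 0.425 in CON. Only for Trp63 and Krt15 did the groups overlap. All 10 markers of the hair matrix fell, with sums of 29.6, 33.1 and 66.5 TPM in MOD, against 594, 484 and 553 TPM in CON. Relative to these markers the mitosis genes were higher in MOD, at a ratio of 15.4 ± 5.06, against 3.14 ± 0.716 in CON. All 14 hair shaft and root sheath markers found in the table fell, with sums of 3.62 to 4.40 TPM in MOD against 4996 to 21640 TPM in CON, and Krt34 and Krt81 were listed at 0 in all MOD libraries. Of the 14, those other than S100a3 were below 1 TPM in all MOD libraries. They met the filter only through CON, which fixed their direction. All 6 melanocyte markers fell too (37.5 to 185 TPM in MOD, 439 to 871 TPM in CON).

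Markers of several other cell types were higher in MOD, where 12.5% of all tested genes were called higher. Of 8 macrophage and monocyte markers 7 rose (sums of 441 to 554 TPM in MOD, 75.0 to 207 TPM in CON). The 8 tested of 10 neutrophil markers rose too (2501 to 7765 TPM in MOD, 28.3 to 82.1 TPM in CON). Retnlg was listed at 0 in all CON libraries, and Cxcr2 and Mmp8 were below 1 TPM there. These met the filter only through MOD, which fixed their direction. Ly6g and Mpo did not meet it. Most of the neutrophil sum in MOD was S100a8 (1403 to 3915 TPM) and S100a9 (991 to 3565 TPM). Of 5 endothelial markers 4 rose (224 to 276 TPM in MOD, 69.6 to 93.8 TPM in CON), and 5 of 6 skeletal muscle markers rose (13894 to 21793 TPM in MOD, 2127 to 7699 TPM in CON). Of 7 fibroblast markers 1 rose, near the share over all tested genes (4266 to 6709 TPM in MOD, 3362 to 5017 TPM in CON). Of 7 tested T cell markers 2 rose (39.4 to 57.6 TPM in MOD, 19.6 to 28.9 TPM in CON). Of 8 suprabasal epidermis markers 3 fell (37.5%, near the 36.1% of all tested genes) and 0 rose. Their sums were 839 to 1973 TPM in MOD and 530 to 2975 TPM in CON. Of 4 wound epidermis keratins 2 rose and 1 fell (914 to 961 TPM in MOD, 1280 to 1685 TPM in CON). Most of that CON sum was Krt17, which fell (257 to 276 TPM in MOD, 1172 to 1582 TPM in CON). Krt6b and Krt16 were 17.2 and 31.1-fold higher in MOD, and Krt6a did not pass. The 5 adipocyte markers did not pass, 1 of 5 sebaceous markers rose and 1 fell, and 1 of the 2 tested B and plasma cell markers rose. That B cell marker, Cd79b, was below 1 TPM in all CON libraries and met the filter only through MOD. The part of these shifts in the fall of the mitosis genes was not tested.

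**Figure D5:**
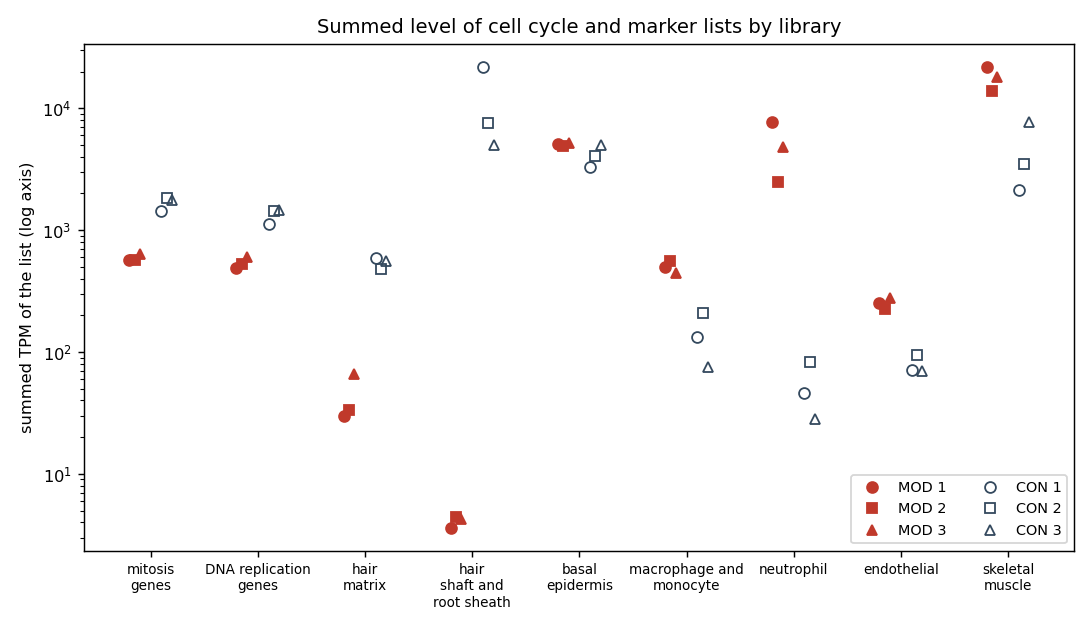
Summed TPM (log axis) of the mitosis genes, the DNA replication genes and 7 lists of cell type markers in the 3 MOD (filled) and 3 CON (open) libraries. Mitosis, replication, hair matrix and hair shaft sums were lower in MOD, basal epidermis sums overlapped those of CON, and myeloid, endothelial and muscle sums were higher.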

How the data were processed

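The authors deposited TPM values per gene for 6 libraries, made with build GRCm39 according to the submitters' processing notes. Per the labels' protocols, RNA came from a TRIzol extraction and went into a SMARTER mRNA-Seq library kit. How reads were aligned and counted is not given in the sources used here. TPM keeps no sequencing depth, so depth is unknown and no counting interval or floor is given. Between 23311 and 24647 genes were above 0 in a library.

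Libraries are numbered as in the labels' titles (CON 2 and CON 3 are the deposited columns CON3 and CON4). The test took log2(TPM + 1) of the 15323 genes at 1 TPM or more in 3 or more libraries into limma 3.58.1 under R 4.3.3 (lmFit, eBayes with trend, two-sided, Benjamini-Hochberg over all tested genes, threshold 0.05). Folds are ratios of mean TPM. "Rose" and "fell" mark genes past this threshold. A gene below 1 TPM in all MOD or all CON libraries, such as Kif14, met the filter only through the other group. This fixed its direction. Lists were described by counts and medians, with no test of a list.

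The members and lists were chosen with earlier results of these data known. In each role group, the genes given library by library were the most abundant and those with the largest and smallest fall. In each other cell cycle list the genes named, some by fold alone, were the 3 with the largest fall and the 3 with the largest rise past the threshold, plus Ccnd1 and Cdkn1a. Further genes, such as Pttg1 and Trp63, were named after their values were seen. The procedure was tested on simulated data. It recovered 50.7% of simulated log2 changes of 1, 80.6% of those of 2 and 95.5% of those of 3. A gene that did not pass may therefore still differ. Alternatives were other pseudocounts, filters and scalings, a replicate block, an H2-Ea term (a library above 15 TPM or not) and leaving out each library.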

Additional observations from a re-analysis of the deposited data

How the results depend on the processing

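All 44 mitosis genes kept a negative difference under the 17 alternatives, and the count of 44 called lower held under 15 of them, leaving out each library in turn included. It was 42 with the H2-Ea term and 32 with this term and median-of-ratios scaling together, where 5.16% of tested genes were called lower. The 12 members that lost their calls there had adjusted p up to 0.249, and the cause was not tested. The count called higher was 0 throughout. The members' median of -1.49 was -1.20 with median-of-ratios scaling, -1.17 with quantile normalization, -1.67 with the H2-Ea term and -1.30 with both the term and median-of-ratios scaling, and lay between -1.55 and -1.39 without each library in turn. The median of all tested genes was -0.31, -0.03 with median-of-ratios scaling and -0.04 with quantile normalization, so the members stayed 1.17 and 1.12 below it, against 1.19 in TPM as deposited.

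Over all tested genes, 1914 were higher and 5538 lower (25.7% of calls higher). With median-of-ratios scaling 2945 were higher and 3085 lower (48.8%), with quantile normalization 2818 and 3177 (47.0%), with the H2-Ea term 667 and 2747 (19.5%), and with both the term and median-of-ratios scaling 888 and 791 (52.9%). Without each library in turn the counts ran between 1162 and 2059 higher and between 3542 and 5173 lower. Without MOD 1 they were 1162 and 3542 and without MOD 2 1240 were higher. Among the other cell cycle lists, 27 further mitosis genes, 13 replication genes, 6 regulators and 4 G1 genes were called lower in the combined setting. Same-numbered libraries had correlations of 0.005, 0.069 and 0.066 in their deviations from the group means, and other pairs -0.104 to 0.038. Such values cannot show whether the numbers pair the libraries, because the 3 deviations within a group sum to 0. With the replicate block 44 members fell, and 1914 genes were higher and 5343 lower. Depth is unknown.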

Other observations

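Over the rest of the table, the share of genes called lower was much alike with and without the promoter letters frequent in the mitosis genes. Among tested genes that are not members, 37.7% of the 810 with both TTTGAA and CCAAT in a matched window were called lower (median log2 difference -0.34). The shares were 37.3% of the 853 with TTTGAA alone, 39.0% of the 3967 with CCAAT alone and 37.0% of the 5621 with neither.

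CCAAT boxes stood in evenly spaced pairs in some member promoters. A pair on 1 strand whose starts lie 31 to 34 bases apart was found in 8 of 37 member windows (21.6%), those of Aurka, Ccnb1, Ccnb2, Cdca8, Cdk1, Hmmr, Spc25 and Ube2c, against 294 of all 32851 windows (0.895%). This spacing was chosen after the member windows were seen, and is given as a description.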
